A study of Drosophila melanogaster with 6 samples.

Results

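The chitinase genes of Drosophila melanogaster were examined in whole prepupae homozygous for the L1 allele of Sox14, the gene of an HMG-box transcription factor that responds to ecdysone. The genes were chosen by name, as the array probe sets whose platform annotation gives a single gene, one of 10 listed chitinase symbols. These probe sets, each a group of short oligonucleotides that reports 1 transcript or several, numbered 11 and reported 9 genes, of 11982 genes with such a probe set. Cht6 had 3 probe sets and Cht2, Cht4, Cht5, Cht7, Cht8, Cht9, Cht10 and Cht12 had 1 each. The remaining symbol, Cht3, is a synonym of Cht10 in RefSeq and had no probe set under that name.

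Chitinases hydrolyse chitin, the polymer of N-acetylglucosamine that stiffens the insect cuticle, lines the tracheae and forms part of the peritrophic matrix of the midgut. At each moult, and in the prepupa after pupariation, the old cuticle is separated from the epidermis and partly digested by chitinases in the moulting fluid, under the control of the steroid hormone ecdysone. The enzymes belong to the GH18 family of glycoside hydrolases, which also holds the imaginal disc growth factors (Idgf), secreted proteins that bind chitin but lack a catalytic glutamate. Insect chitinases are sorted by sequence into groups: Cht5 stands for group I, Cht10 for group II, Cht7 for group III, Cht6 for group VI and Cht2 for group VII, while Cht4, Cht8, Cht9 and Cht12 are of group IV, whose members in the beetle Tribolium castaneum are expressed largely in the larval gut.

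The study compared genotypes to find transcripts that depend on Sox14 as metamorphosis begins. The mutant group was of the genotype w1118; sox14L1/sox14L1, homozygous for an allele of Sox14 in every cell. The control group was of the strain w1118, which is named for both groups. Whole animals were collected at 0 h, as the puparium formed, and each of the 3 samples of a group held RNA pooled from 10 prepupae. The labels do not say what the L1 lesion is, nor whether a group's samples are of separate cultures. The p-values therefore cover only the spread among these arrays, which may be technical. Values are log2 signals after RMA (robust multi-array averaging), and levels of different probe sets are not comparable with each other. A change is the mutant mean minus the control mean on that log2 scale, given ± its standard error (SE), and levels are means ± SD over 3 arrays. A probe set was called where the Benjamini-Hochberg adjusted p over all 18769 tested probe sets was under 0.05 in limma.

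Sox14 itself read 10.34, 10.67 and 10.73 on the mutant arrays and 11.40, 11.60 and 11.72 on the control arrays, so it fell by 0.99 ± 0.13 (adjusted p = 0.00101) and still gave a high reading in the mutant. Of all tested probe sets, 19.1% were called. The first mutant array stood apart, with a mean of 12.18 over the 18S rRNA control probe sets against 7.56 to 7.94 on the other arrays. Its 3' actin control probe set also exceeded the 5' one by 1.77, against 0.54 to 0.88 on the other arrays. Each of 7 marker lists, for midgut, salivary gland, fat body, hemocytes, muscle, epidermis with trachea, and neurons, had members above the arrays' low range, so each of these tissues of the labelled whole body was represented. An array's low range ended at the 95th percentile of 97 of its AFFX-Dm control probe sets, between 5.75 and 6.01. In whole animals, fewer cells of a type and less RNA per cell cannot be told apart.

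Of the 11 chitinase probe sets, 3 were called higher in the mutant (Cht4, Cht9 and 1 of the 3 of Cht6) and 2 lower (Cht2 and Cht8). Among all single-gene probe sets, 23.3% were called, 10.6% higher and 12.8% lower. The family did not move in 1 direction. Its median change was 0.21, against -0.03 over all single-gene probe sets. The mutant and control arrays did not overlap for 7 of the 11 probe sets, and for 41.3% of single-gene probe sets in general. Without the first mutant array, 2 chitinase probe sets were called higher and 2 lower.

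**Figure D1:**
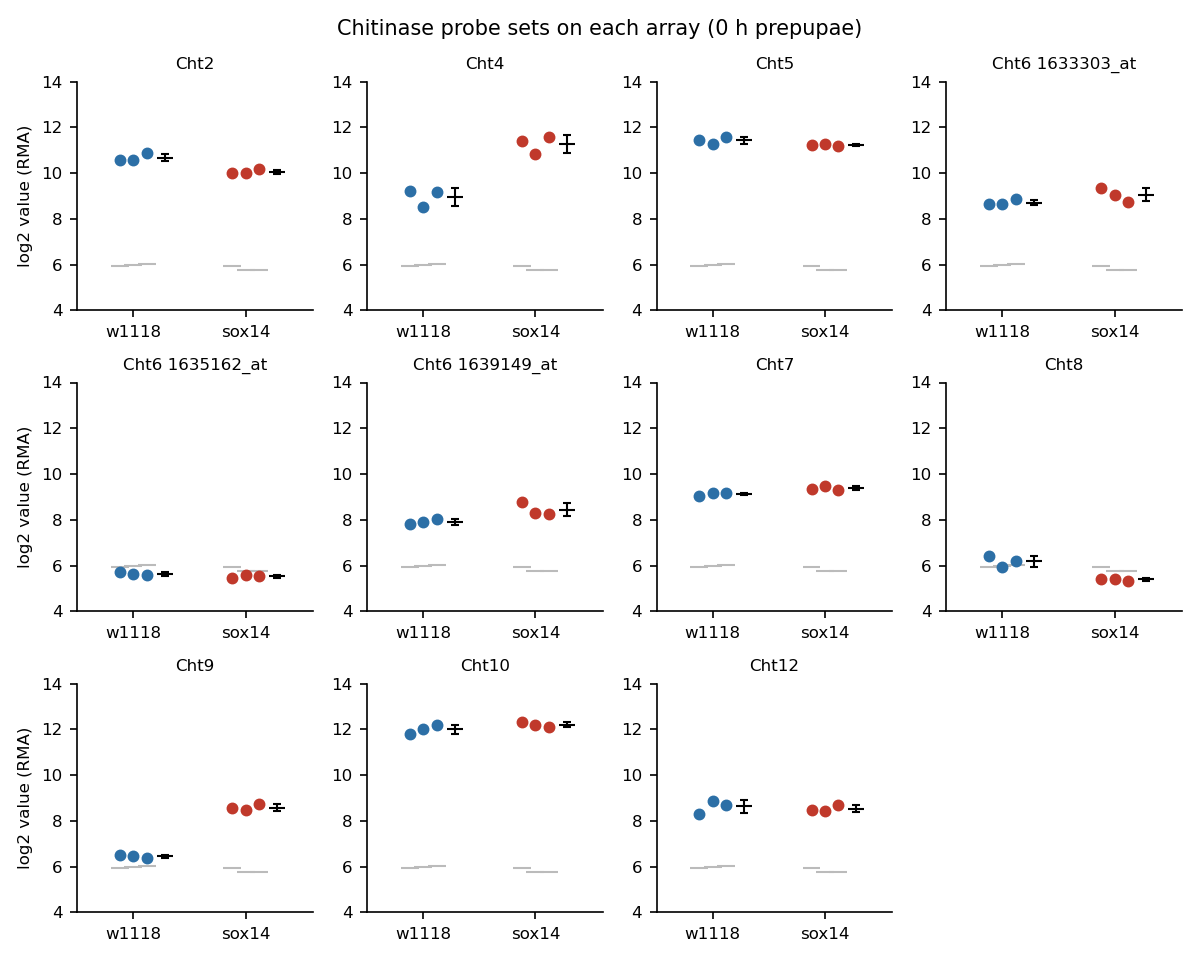
Log2 value (RMA) of each chitinase probe set on the 3 w1118 control arrays (blue) and the 3 sox14 mutant arrays (red), with the mean ± SD of each group as a black bar and the upper limit of each array's low range as a short grey line. Cht4 and Cht9 lie far higher in the mutant, Cht2 and Cht8 lie lower, and probe set 1635162_at of Cht6 lies within the low range on every array.

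Cht4 and Cht9, both of group IV, were the members with the largest changes, and both were higher in the mutant. Cht4 (CG3986, chromosome arm 2R) read 11.41, 10.81 and 11.57 on the mutant arrays and 9.20, 8.52 and 9.17 on the control arrays. Every mutant array lay at least 1.61 above every control array, and the second array was the lowest of each group. Cht4 rose by 2.30 ± 0.23, with a 95% interval of 1.76 to 2.83 (adjusted p = 0.000233), which is 4.92-fold.

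Cht9 (CG10531, also on 2R) read 8.54, 8.46 and 8.74 on the mutant arrays and 6.53, 6.46 and 6.39 on the control arrays. The groups were separated by 1.94, and the control arrays lay just above the upper limit of the low range. Cht9 rose by 2.12 ± 0.10, with a 95% interval of 1.89 to 2.36 (adjusted p = 3.35e-06), which is 4.36-fold. A rise of more than 4-fold was called for 1.14% of all single-gene probe sets. In RefSeq an antisense RNA gene overlaps Cht9, and which strand its probe set reads is not stated there or in the labels.

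Cht8 (CG9357, 2R), likewise of group IV, moved the other way. It read 5.43, 5.43 and 5.34 on the mutant arrays and 6.42, 5.94 and 6.20 on the control arrays. All 3 mutant arrays and 1 of the 3 control arrays were within the low range, and the groups did not overlap. Cht8 fell by 0.78 ± 0.13 (adjusted p = 0.00286), and because the mutant readings were that dim the change is given as at least 1.30-fold lower.

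Cht12 (CG30293, 2R), the last group IV member, read 8.48, 8.42 and 8.71 on the mutant arrays and 8.31, 8.88 and 8.71 on the control arrays. The mutant readings lay inside the range of the control readings. Its change of -0.09 ± 0.15 was not called (adjusted p = 0.741). The 95% interval from -0.45 to 0.26 leaves out rises of the size seen in Cht4 and Cht9. It does not leave out a fall of 0.37, the least size given for Cht8 on the log2 scale.

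These 4 group IV genes follow each other directly along 2R, in the order Cht8, Cht12, Cht4 and Cht9, with no other protein-coding gene between them in the RefSeq annotation. Cht4 and Cht9, which rose, lie side by side. Cht8, which fell, lies at the other end of the run, and Cht12, which did not pass the test, lies between Cht8 and Cht4. On either side of the run, the nearest genes did not pass the test: mRpL54, which encodes a mitochondrial ribosomal protein, changed by -0.07 ± 0.09 (adjusted p = 0.684) beside Cht8, and CG10527 by 0.02 ± 0.08 (adjusted p = 0.889) beside Cht9. Of the 12 nearest protein-coding genes, 6 on each side, 1 was called higher and 3 lower. Over all single-gene probe sets on 2R, 26.5% were called, 13.0% higher and 13.5% lower.

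The Cht8 and Cht12 genes overlap by 35 bases at their ends in the annotation. Sox14 lies on the same chromosome arm, with 483 protein-coding genes between Cht9 and Sox14. The mutant chromosome was not compared with the w1118 chromosome in sequence, so for the 4 genes of the run and for Cht10 on 2L, an effect of Sox14 and strain differences carried on chromosome 2 cannot be told apart. The other 4 member genes lie elsewhere, Cht2 and Cht7 on 3L, Cht5 on 3R and Cht6 on the X. Of those, Cht2 and Cht6 had a called probe set, and their chromosomes were not compared in sequence either.

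**Figure D2:**
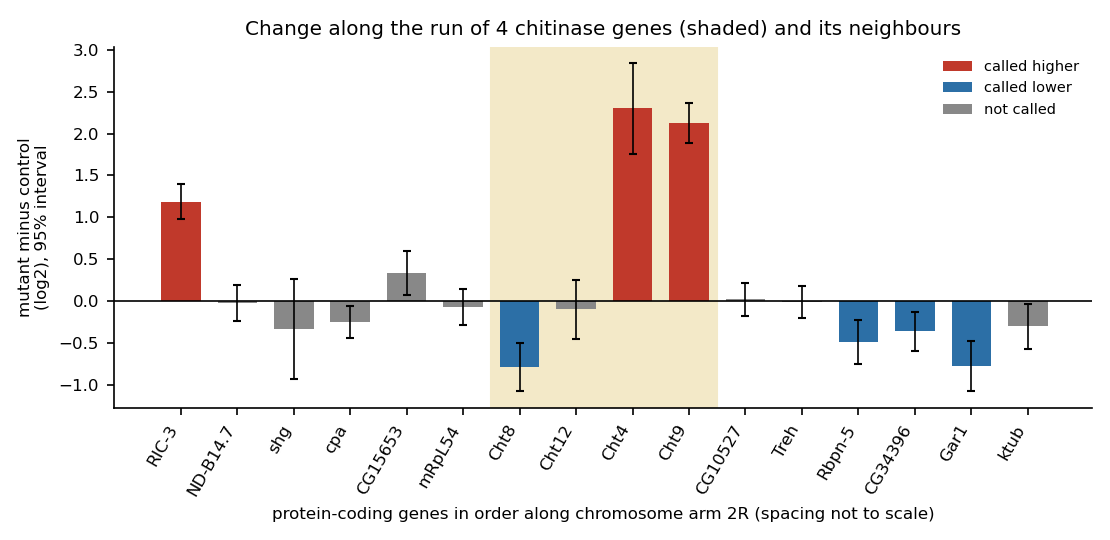
Change from control to mutant (log2, bars, with 95% intervals) of the 4 adjacent chitinase genes (shaded) and of 6 protein-coding genes on either side, in their order along chromosome arm 2R with spacing not drawn to scale. Cht4 and Cht9 rose by 2.30 and 2.12, Cht8 fell, and Cht12 and the genes just outside the run were not called.

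Markers of the midgut moved with Cht4 and Cht9. Of 12 measured midgut genes, trypsins and other digestive enzymes, 7 were called higher and 1 lower. Of those called higher, alphaTry, betaTry, epsilonTry, thetaTry, Jon44E and Mal-A1 lie on 2R and Jon99Ci on 3R. For the markers on 2R, as for the chitinase run, an effect of Sox14 and strain differences carried on chromosome 2 cannot be told apart. With each gene represented by its brightest probe set, as here, 24.7% of all genes were called, 11.3% higher and 13.4% lower. The midgut list had a median change of 0.89. Jon25Biii was the marker called lower, and zetaTry, etaTry, iotaTry and lambdaTry were not called. Of the markers, lambdaTry was in the low range on all 6 arrays. The log2 of the summed signal of the 12 markers lay between 15.54 and 15.81 on the mutant arrays and between 13.94 and 14.12 on the control arrays. That sum weighs the brightest probe sets most, among them alphaTry, betaTry and epsilonTry, which rose by 0.83, 5.82 and 6.66. The part of the midgut shift in the rises of Cht4 and Cht9 was not tested. On the same arrays Cht8, dim in the mutant, was called lower and Cht12 was not called. Which tissues these genes are read from was not tested. Muscle markers were higher too: of 7 listed genes, 4 were measured and all 4 were called. For Mlc2 among them, all 3 control arrays lay in the low range.

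**Figure D3:**
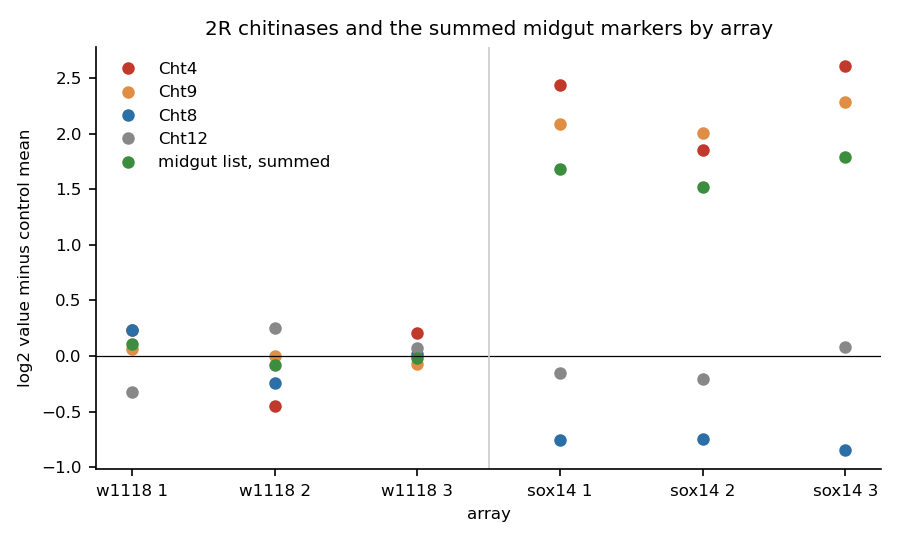
Log2 values of the 4 chitinase genes of the 2R run and log2 of the summed signal of 12 midgut markers on each of the 6 arrays, each with its mean over the 3 control arrays subtracted. Cht4, Cht9 and the midgut sum lie above 0 on all 3 mutant arrays, Cht8 lies below 0 on them, and Cht12 lies on both sides of 0 in both groups.

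Among the genes outside group IV, Cht2 (CG2054, 3L), a group VII chitinase, was lower in the mutant. It read 10.01, 10.02 and 10.17 on the mutant arrays and 10.57, 10.59 and 10.86 on the control arrays. The groups were 0.40 apart at their nearest. Cht2 fell by 0.60 ± 0.11, with a 95% interval from -0.85 to -0.36 (adjusted p = 0.00535), which is 1.52-fold. The gene CG13921 overlaps Cht2 in the annotation.

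Cht6 (CG43374, X), a group VI gene, was not called alike in its 3 probe sets, although both of those above the low range had a higher mean in the mutant. Probe set 1639149_at read 8.78, 8.29 and 8.26 on the mutant arrays and 7.80, 7.90 and 8.04 on the control arrays, and rose by 0.53 ± 0.15 (adjusted p = 0.0394). The groups did not overlap, and the first mutant array was the highest. That call was lost with any of 5 arrays left out, all but the third mutant array, at adjusted p-values of 0.0531 to 0.117, and with a replicate block (adjusted p = 0.0652). Without the first mutant array the change was 0.36.

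The second Cht6 probe set, 1633303_at, read 9.33, 9.06 and 8.76 in the mutant and 8.63, 8.64 and 8.85 in the control. The groups overlapped, and its change of 0.34 ± 0.15 was not called (adjusted p = 0.158). It was called without the third mutant array (change 0.49, adjusted p = 0.0429). The remaining probe set, 1635162_at, lay within the low range on all 6 arrays, at 5.45 to 5.59 in the mutant and 5.58 to 5.71 in the control, so it gives no size. As for Cht9, an antisense RNA gene overlaps Cht6 in the annotation. The mean of the 3 probe sets changed by 0.25 and was not called (adjusted p = 0.126).

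Cht5, Cht10 and Cht7, of groups I, II and III, did not pass the test. Cht10 (CG18140, 2L), the group II enzyme with several catalytic domains, which is required for moulting in Tribolium, read 12.31, 12.20 and 12.11 in the mutant and 11.79, 12.01 and 12.19 in the control. The groups overlapped, and the change of 0.21 ± 0.12 was not called (adjusted p = 0.287). Its 95% interval ran from -0.06 to 0.48.

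Cht5 (CG9307, 3R), the group I enzyme of the moulting fluid, read 11.23, 11.26 and 11.19 in the mutant and 11.45, 11.27 and 11.59 in the control. The second control array was only 0.02 above the highest mutant array. The change of -0.21 ± 0.10 was not called (adjusted p = 0.206), with a 95% interval from -0.45 to 0.02.

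Cht7 (CG1869, 3L), the group III enzyme, which carries a membrane anchor, read 9.33, 9.48 and 9.31 in the mutant and 9.06, 9.17 and 9.16 in the control. The groups did not overlap, with a gap of 0.14, and the change of 0.25 ± 0.09 was not called (adjusted p = 0.107), with a 95% interval of 0.04 to 0.45. With array weights it was called (change 0.30, adjusted p = 0.0432).

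**Figure D4:**
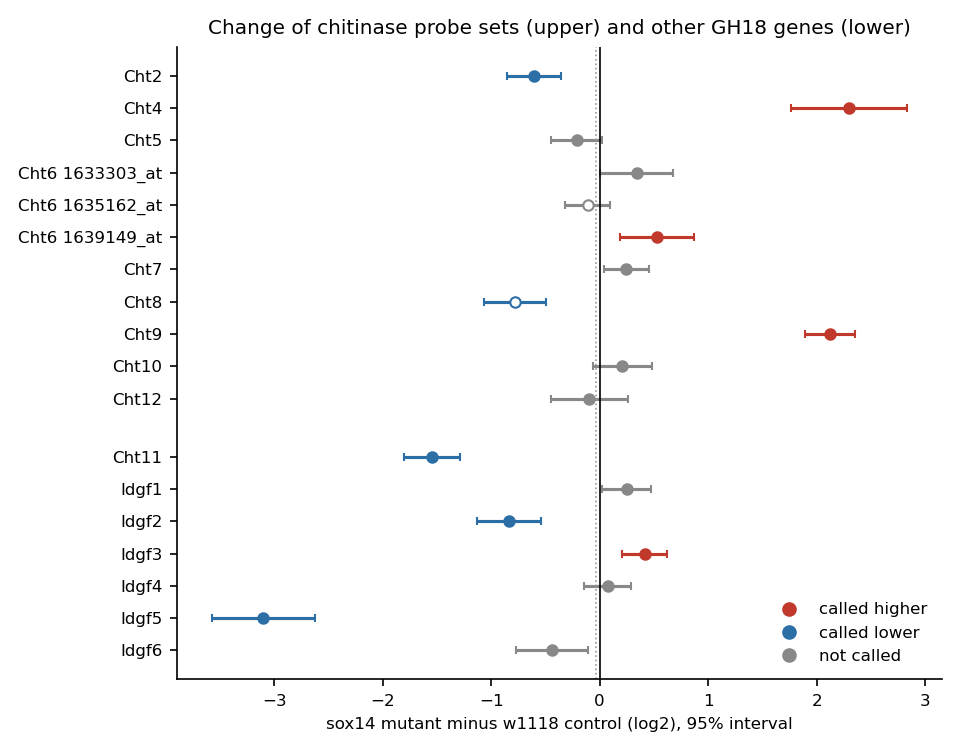
Change from w1118 control to sox14 mutant (log2, points, with 95% intervals) of the 11 chitinase probe sets (upper block) and of 7 other GH18 genes (lower block), with open points where all 3 arrays of a group lay in the low range. The dotted line is the median of all single-gene probe sets, -0.03. Cht4 and Cht9 are the largest rises and Idgf5 and Cht11 the largest falls.

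The rest of the GH18 family held larger falls than the chitinases described above. It includes Cht11, a chitinase that is not among the 10 listed symbols. For each of the gene lists that follow, a gene was again represented by its brightest probe set, to be read against the same 24.7% of all genes. Of 7 genes, Cht11 and the Idgf genes, 3 were called lower and 1 higher, with a median change of -0.44. Cht11 (CG3044, X), the group VIII chitinase, read 8.02, 8.17 and 8.16 in the mutant and 9.86, 9.50 and 9.63 in the control, without overlap. It fell by 1.55 ± 0.11 (adjusted p = 3.33e-05), which is 2.92-fold.

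Of the Idgf genes, Idgf5 read 6.56, 5.62 and 6.13 in the mutant and 9.28, 9.10 and 9.22 in the control. It fell by 3.10 ± 0.21 (adjusted p = 2.04e-05), with 1 of the 3 mutant arrays in the low range, so its size is uncertain. Idgf2 fell by 0.84 ± 0.13 (adjusted p = 0.00228). Idgf3, named after its value was seen, rose by 0.42 ± 0.09 (adjusted p = 0.0134), a call lost without the second mutant array (adjusted p = 0.0579).

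The breakdown of chitin fragments is finished by beta-N-acetylglucosaminidases. Of the listed genes of such enzymes, Hexo2 and fdl were measured and neither was called, while Hexo1 is not analysed here. Whether fdl acts on chitin was not tested. Of 2 measured, the larger change was that of Hexo2, with mutant arrays at 10.49 ± 0.22 and control arrays at 10.28 ± 0.21 (adjusted p = 0.376). At an unadjusted p under 0.05 in limma, the count was 0 as well.

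On the side of synthesis, 2 of 6 measured genes were called lower in limma and none higher, as at an unadjusted p under 0.05, with a median change of -0.02. Neither chitin synthase gene, kkv or Chs2, was among them. Gnpnat, which encodes an acetyltransferase of the path to UDP-N-acetylglucosamine, fell by 0.56 ± 0.13 (adjusted p = 0.0174), and Gfat1, the gene of the first enzyme of that path, by 0.33 ± 0.10 (adjusted p = 0.0460). Gfat1 was not called with any single array left out, and Gnpnat was not called without the first mutant, the second mutant or the first control array (adjusted p = 0.0605, 0.0690 and 0.0600).

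Among 5 measured chitin deacetylase genes, 1 was called, with a median change of -0.02. It was serp, which acts on the chitin of the tracheal lumen and rose by 0.39 ± 0.10 (adjusted p = 0.0231). It was not called without the second mutant, the third mutant, the first control or the second control array (adjusted p = 0.0973, 0.0756, 0.0754 and 0.0520).

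Genes of chitin-binding and matrix assembly proteins were more often called higher than lower. Of 15 measured, 7 were called higher and 2 lower, and the median change was 0.40. With arrays left out in turn, 6 to 8 were called. The obstructor genes obst-G and obst-F, whose products carry chitin-binding domains, rose by 1.41 ± 0.29 (adjusted p = 0.0101) and 0.94 ± 0.19 (adjusted p = 0.00861). Both calls held with any single array left out, as did the higher calls of Gasp and obst-H. The higher call of Peritrophin-15b held in 5 of the 6 such fits, and those of obst-J and Peritrophin-15a in 2. Gasp, obst-H, obst-J, Peritrophin-15a and Peritrophin-15b were named after their values were seen. obst-I was called lower (adjusted p = 0.0107), with all 3 mutant arrays in the low range, and its change is given as at least 1.13-fold. The other call in that direction, obst-B, was named after its value was seen: it fell by 0.36 ± 0.10 (adjusted p = 0.0369), a call that held without the second control array and was lost with each of the other arrays left out (adjusted p = 0.0640 to 0.116).

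**Figure D5:**
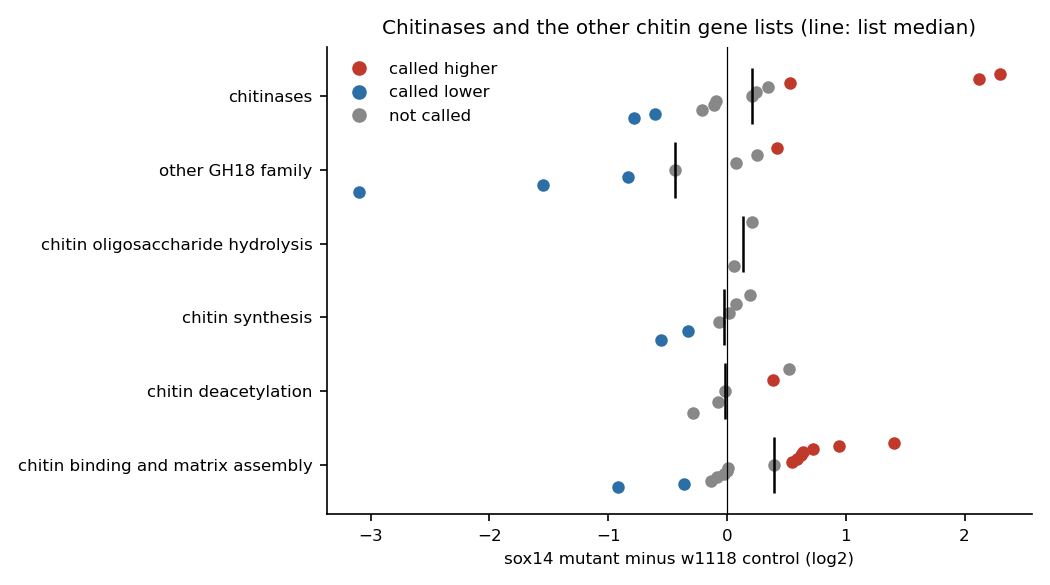
Change from w1118 control to sox14 mutant (log2) of every measured member of the chitinase family (11 probe sets) and of the 5 other chitin gene lists (1 probe set per gene), with the list median as a black line. Called members lie on both sides of 0 among the chitinases, the other GH18 genes and the chitin-binding genes, and the 2 calls among synthesis genes are falls.

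The genes most like Cht4 over the 6 arrays, by Euclidean distance after each probe set was centred on its own mean, were CG33510 (distance 0.55), CG4363 (0.59) and CG6337 (0.60). Each was called higher. CG4363 read 10.54, 10.01 and 10.41 in the mutant and 8.32, 8.16 and 8.47 in the control, with the second array lowest in both groups, as for Cht4. It rose by 2.00 ± 0.15, and CG6337 by 2.25 ± 0.15, a size that is uncertain because 1 of its 3 control arrays lay in the low range. The control arrays of CG33510 all lay in the low range, so its rise is given as at least 2.53-fold. Likeness here rests on 6 arrays in 2 groups and mostly reflects the size of the change between genotypes.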

How the data were processed

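The deposited log2 values of the 6 Affymetrix Drosophila arrays were made with RMA and Affymetrix Expression Console 1.1, as the submitters' processing notes record (per the labels). RMA subtracts background, equalises arrays and merges the oligonucleotides of a probe set, so dim changes are compressed and amounts per animal cannot be read. The genome build is not named in the labels. After 183 AFFX control probe sets were left out, 18769 were tested, of which 13647 had a single gene, 402 several and 4720 none in the platform annotation. All 11 chitinase probe sets matched RefSeq by gene identifier (Release 6 plus ISO1 MT), which gave arms and gene order. The 3 mutant and 3 control arrays entered a moderated linear model (limma 3.58.1, lmFit then eBayes, R 4.3.3). Its 2-sided p-values were adjusted by Benjamini-Hochberg across the whole array. The fit was also run on simulated data with independent normal noise and planted changes. That run checks the code and bears on none of the calls given here. The number of arrays limits the precision. Members and lists were chosen with earlier results of these data known. Named were all members, Sox14, up to 3 called genes per list or the largest change where none was called, the 3 patterns nearest to Cht4, and the flanking neighbours of the 2R run. Of the listed chitin genes, Hexo1, nst, Cda3, rtv, Knkl1 and dp are not analysed here. Of the tissue markers, gammaTry, deltaTry, lab, Lsp1alpha, Lsp1beta, Lsp1gamma, Mhc, wupA, Act57B, Syt1 and Syx1A are not analysed either.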

Additional observations from a re-analysis of the deposited data

Results flagged for a closer look

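Of the 100 AFFX-Dm control probe sets, which stand outside the comparison of genes, 3 were higher in the mutant at an adjusted p under 0.05 in limma, with all mutant arrays above all control arrays. AFFX-Dm-J01347-1_s_at was higher by 4.20 (7.75 against 3.55), AFFX-Dm-U46493-1_s_at by 5.31 (9.77 against 4.46) and AFFX-Dm-O82258_at by 0.28 (4.69 against 4.41). They were left out of the control probe sets that set the low range.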

How the results depend on the processing

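Each chitinase probe set was refitted with array weights, a robust trended variance, a replicate block, quantile normalisation or median centring, the dimmest 40% of probe sets left out, each array left out in turn and, per gene, the mean of its probe sets. Of 139 such values, 131 kept their side of the threshold, 6 lost a call (all of Cht6 1639149_at), 2 gained one, and no called value changed sign. Cht2, Cht4 and Cht9 stayed called throughout, with changes of -0.66 to -0.51, 2.08 to 2.52 and 2.04 to 2.18, and Cht8 wherever it was tested (-0.90 to -0.67). With arrays left out in turn, 2 to 4 chitinase probe sets were called higher and 2 lower. Lower calls numbered 1 with the dimmest probe sets left out, since Cht8 was then not tested. Over all tested probe sets, 2493 to 3268 were called with 1 array left out and 1963 at a threshold of 0.01. Synthesis genes called numbered 1 with the replicate block, quantile normalisation, array weights or the mean of probe sets, and 0 to 1 with arrays left out. Deacetylase genes called numbered 2 with the dimmest probe sets left out or the mean of probe sets, and 0 to 1 with arrays left out. For these counts the cause was not tested. Deviations of same-numbered arrays correlated at 0.17, -0.10 and -0.02, within the -0.26 to 0.26 of differently numbered ones. With so few arrays this cannot tell whether same-numbered samples were collected or handled together. The replicate block gave 2 chitinase probe sets called higher and 2 lower. Dim probe sets limit what can be said of Cht8 and Cht6 1635162_at.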
